A study of Saccharomyces cerevisiae with 12 samples.

Results

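The transcriptional response of budding yeast to dithiothreitol (DTT) was compared between cells that lack the transcription factor Gcn4p (Δ*gcn4*) and cells that lack the kinase Gcn2p, which acts upstream of it (Δ*gcn2*). The members of the comparison are 6 of the 12 arrays of the series, the 3 Δ*gcn4* arrays and the 3 Δ*gcn2* arrays, chosen by strain label. The other 6 arrays, of Δ*ire1* and wild-type (WT) cells, entered the fit and serve below only to place the values. Each array set *Saccharomyces cerevisiae* cells treated with DTT for 30 min against untreated cells of the same strain, so that each value is a log2 ratio of treated over untreated cells for 1 of 6024 array elements. All strains descended from a *MATa* parent with mutant alleles of *URA3*, *LEU2*, *HIS3*, *TRP1*, *ADE2*, and *CAN1*. The same his5+ cassette replaced *GCN4* in one strain and *GCN2* in the other and *TRP1* replaced *IRE1* in the third, and the number of clones is not given. Cells grew in rich medium (YPD), and the 3 arrays of a strain are described as independent experiments.

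Both deletions cut the same pathway at different steps. Gcn2p phosphorylates the translation factor eIF2 when uncharged tRNA accumulates, which lowers general initiation and lets the *GCN4* message escape the block set by its upstream open reading frames. Gcn4p then activates amino acid biosynthesis and many other genes. A Δ*gcn2* cell therefore still holds the *GCN4* gene, whereas a Δ*gcn4* cell still holds the kinase and its effect on eIF2. DTT reduces disulfide bonds, unfolds proteins in the endoplasmic reticulum (ER), and triggers the unfolded protein response (UPR), in which Ire1p splices *HAC1* mRNA and Hac1p activates target genes through UPR elements (UPREs) in their promoters. Under tunicamycin, another inducer of the UPR, the study found Gcn4p low in Δ*gcn2* cells and not rising. It saw no increase in eIF2 phosphorylation under that treatment.

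Some features of the arrays bear on all that follows. The Δ*gcn2* arrays correlated with each other over all elements at 0.932 to 0.943, whereas Δ*gcn4* replicate 1 correlated with the other Δ*gcn4* arrays at 0.729 and 0.78, and these correlated with each other at 0.906. Array medians lay between −0.194 and −0.144 in Δ*gcn4* and between −0.148 and −0.056 in Δ*gcn2*. The response was narrower in Δ*gcn4*: the SD over elements was 0.55, 0.51, and 0.59 on the Δ*gcn4* arrays, against 0.61, 0.66, and 0.71 on the Δ*gcn2* arrays. The mean difference in SD was −0.113 (exact permutation test, two-sided, p = 0.1, the smallest that 3 against 3 arrays allow). The first 139 elements of the table stand outside the order of systematic gene names that the later rows follow (99.4% of named neighbors ascend), and they are treated apart below. Both channels of an array come from the same strain, so a deleted gene shows no loss in the ratio, and the strain names used here rest on the labels. The *GCN4* spot gave −0.69, −0.99, and −0.81 on the Δ*gcn4* arrays, against −0.55, −0.86, and −0.57 on the Δ*gcn2* arrays. Its mean of −0.83 in Δ*gcn4* was called lower after DTT (adjusted p = 4.34e-06), as were those of −0.52 in Δ*ire1* and −0.59 in WT, strains that hold the gene. The *GCN2* spot gave 0.34, −0.28, and −0.04 in Δ*gcn4*, against 0.22, 0.38, and 0.92 in Δ*gcn2*, where its mean of 0.51 was called higher after DTT (adjusted p = 0.00648), with 0.29 in WT (not called). The spots of the deleted genes thus gave ratios that are not at 0, and without intensities it was not tested what RNA they measured.

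Much of the response was common to the 2 strains. DTT raised 949 elements in Δ*gcn4* (15.8% of those tested) and 1520 in Δ*gcn2* (25.2%) at an adjusted p under 0.05, and 845 were higher in both, which is 89% of the Δ*gcn4* set and 55.6% of the Δ*gcn2* set. The elements lower after DTT numbered 2329 in Δ*gcn4* (38.7%) and 2280 in Δ*gcn2* (37.8%), with 1838 in both. The strain means correlated over the 6024 elements at 0.882, a description across genes and not across replicates.

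The direct contrast, Δ*gcn4* minus Δ*gcn2*, passed the threshold for 381 elements (6.32%). Of these, 113 were higher in Δ*gcn4* than in Δ*gcn2* (1.88%) and 268 were lower (4.45%). All 381 had arrays that did not overlap between the strains, as had 31.4% of all elements. The median size of a called difference was 0.656 on the log2 scale and the smallest was 0.415. A difference of at least 1 was reached by 6 elements above and 37 below. The median over all elements was −0.06. The split depended on the scaling of the arrays: 152 were higher and 175 lower with the arrays centered on their medians, and 25 and 32 with the arrays also scaled to one spread. All 57 of the latter calls were among the 381. The count also differed with the array left out. It was 112, 113, and 333 without Δ*gcn4* replicate 1, 2, or 3, and 138, 90, and 25 without Δ*gcn2* replicate 1, 2, or 3, and 25 of the 381 were called in each of these 6 fits. Of the 85 elements named here by rule, 76 were called. Of these 76, 64 lost their call without Δ*gcn2* replicate 3 and 50 after scaling. Those called in every leave-one-out fit were *ARN2*, *HO*, *LEU9*, *WRS1*, *GPG1*, *NQM1*, *HSP26*, *ADR1*, *ROQ1*, *INO1*, and elements 16 and 290.

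**Figure D1:**
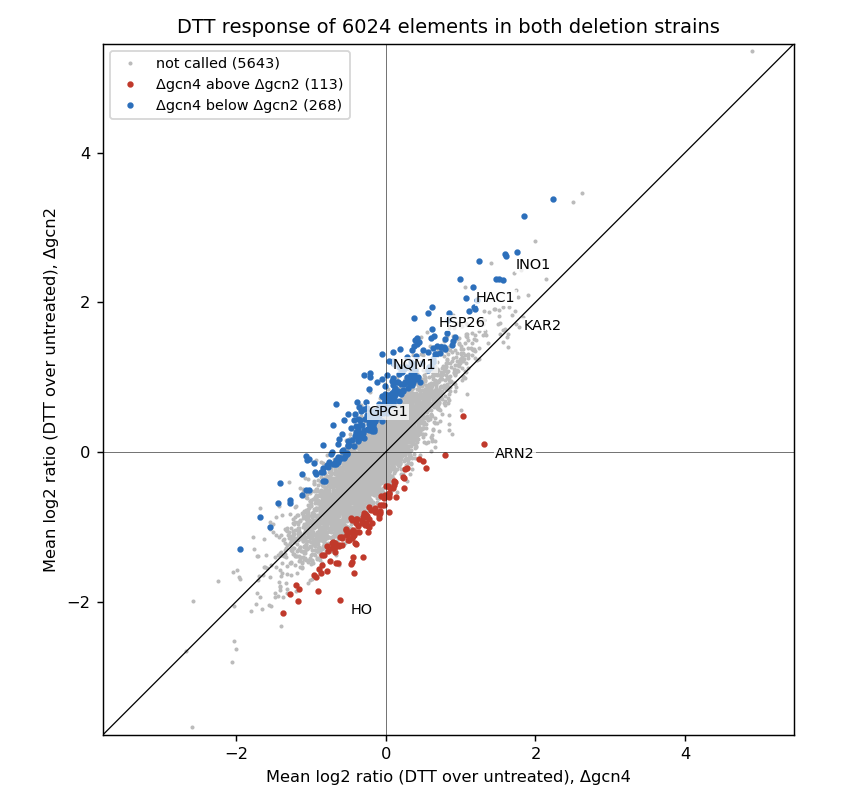
Mean log2 ratio (DTT over untreated) in Δ*gcn4* (x axis) and Δ*gcn2* (y axis), 1 point for each of 6024 elements, with the line of equal response. The 268 elements lower in Δ*gcn4* lie above the line and the 113 higher in Δ*gcn4* lie below it, most of the latter where both strains are at or below 0.

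The differences were set against each strain's own response. Of the 268 elements lower in Δ*gcn4*, 112 were higher after DTT in Δ*gcn2* and not called in Δ*gcn4*, 72 were higher in both, 49 were lower in Δ*gcn4* and not called in Δ*gcn2*, 15 were lower in both, and 20 were lower after DTT in Δ*gcn4* and higher in Δ*gcn2*. No element went the opposite way. Of the 113 elements higher in Δ*gcn4*, 69 were lower after DTT in both strains, 36 were lower in Δ*gcn2* and not called in Δ*gcn4*, 7 were higher in Δ*gcn4* and not called in Δ*gcn2*, and 1 was higher in both.

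WT cells give the place of each strain. Both differences from WT use the same WT arrays, so they are not independent. Over all elements, Δ*gcn4* was below WT for 117 (1.94%) and above for 52 (0.863%), whereas Δ*gcn2* was below WT for 376 (6.24%) and above for 657 (10.9%). Of the 268 elements lower in Δ*gcn4* than in Δ*gcn2*, 171 were above WT in Δ*gcn2* and not called against WT in Δ*gcn4*, 14 were below WT in Δ*gcn4* and not called in Δ*gcn2*, 4 were below WT in both, and 79 were called in neither. Of the 113 higher in Δ*gcn4*, 72 were below WT in Δ*gcn2* and not called in Δ*gcn4*, 4 were above WT in Δ*gcn4* and not called in Δ*gcn2*, 1 was below WT in both, and 36 were called in neither. For most of these elements with a call against WT, the Δ*gcn2* value was thus the one called apart from WT in the main fit. The calls against WT rest on unscaled arrays, whose spread was wider in Δ*gcn2* than in Δ*gcn4*. They were not tested after scaling, centering, or leaving out an array.

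The largest positive differences belonged to *HO*, which encodes the endonuclease of mating-type switching, and *ARN2*, which encodes a transporter of iron-bearing siderophores. *ARN2* gave 1.16, 1.44, and 1.35 on the Δ*gcn4* arrays, against 0.13, 0.21, and −0.02 on the Δ*gcn2* arrays, with 1.39, 1.46, and 1.24 in WT. The iron transporter gene was thus induced in Δ*gcn4* near the WT level and not called in Δ*gcn2*, a difference of 1.21 ± 0.13 (SE, adjusted p = 0.000821). *HO* gave −0.28, −0.61, and −0.95 in Δ*gcn4*, against −1.79, −1.90, and −2.24 in Δ*gcn2*, a difference of 1.36 ± 0.19 (adjusted p = 0.00319). Both calls held in all 6 leave-one-out fits and after scaling. *ARN2* was the only called gene among 21 measured genes of iron uptake, whose median difference was −0.01.

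The other 8 of the 10 largest positive differences were in genes that were lower after DTT in Δ*gcn2*. They were *LEU9* (1.20), for an isopropylmalate synthase of leucine synthesis, *DBP2* (1.10) and *ROK1* (0.85), for RNA helicases, *IMD2* (1.03) and *IMD3* (0.84), for IMP dehydrogenases of guanine nucleotide synthesis, *AAC3* (0.96), for a mitochondrial ADP/ATP carrier, *BCP1* (1.02), and *YDR222W* (0.94). *LEU9* stood at −0.15, −0.31, and −0.81 in Δ*gcn4*, against −1.54, −1.47, and −1.85 in Δ*gcn2* (adjusted p = 0.00556). *IMD2*, *IMD3*, and *IMD4* are near-identical copies, so their spots may share signal, and *IMD2* was above 0 on Δ*gcn4* replicate 1 alone, at 0.24, with −0.81 and −0.83 on the other Δ*gcn4* arrays, against −1.25, −1.77, and −1.46 in Δ*gcn2*. After scaling, *LEU9* and *IMD3* kept their calls (adjusted p = 0.0208 and 0.0343) and the other 6 did not.

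*HSP26*, *NQM1*, *HXT5*, and *ROQ1* were among the 10 largest negative differences. *HSP26*, which encodes a small heat shock protein, gave 0.22, 0.80, and 0.65 in Δ*gcn4*, against 1.89, 1.93, and 1.75 in Δ*gcn2*, with 0.32, 0.72, and 0.29 in WT. Its Δ*gcn4* values overlapped those of WT and its Δ*gcn2* values lay above both, a difference of −1.30 ± 0.18 (SE, adjusted p = 0.00319). *NQM1*, for a transaldolase, gave 0.12, −0.24, and −0.02 in Δ*gcn4*, against 1.29, 1.01, and 1.62 in Δ*gcn2* (−1.36 ± 0.19, adjusted p = 0.00325). *HXT5*, for a hexose transporter, gave 0.80, 0.70, and 1.49, against 1.79, 2.31, and 2.84 in Δ*gcn2* (−1.32 ± 0.32, adjusted p = 0.0281). *ROQ1*, a stress-induced gene whose product redirects the ubiquitin ligase Ubr1p, gave 1.21, 2.03, and 2.30 in Δ*gcn4*, against 3.09, 3.18, and 3.20 in Δ*gcn2* (−1.31 ± 0.22, adjusted p = 0.00671). It was higher after DTT in both strains.

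The most negative value of all belonged to *YPT53*, for a Rab GTPase of endosomes, with −0.10, 0.28, and 0.94 in Δ*gcn4*, against 1.55, 1.59, and 2.22 in Δ*gcn2* (−1.41 ± 0.31, adjusted p = 0.0192). *YPL247C* gave 0.10, 1.72, and 1.90 in Δ*gcn4*, against 2.46, 2.46, and 2.73 in Δ*gcn2*. Its difference of −1.31 (adjusted p = 0.0434) was −0.74 and past the threshold no longer (adjusted p = 0.121) without Δ*gcn4* replicate 1. The remaining genes of this end were *DIA3* (−1.31), *THI5* (−1.32), *THI12* (−1.27), and element 5904 (−1.31), which has no symbol in the annotation used here. After scaling, the calls of *HSP26*, *ROQ1*, *HXT5*, *YPT53*, and *YPL247C* were lost (adjusted p = 0.0764, 0.236, 0.12, 0.0843, and 0.321) and those of *NQM1*, *DIA3*, *THI5*, *THI12*, and element 5904 were kept (0.0199 to 0.0469). *HXT5* and *YPT53* also missed the threshold in at least one leave-one-out fit (largest adjusted p = 0.142 and 0.107).

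**Figure D2:**
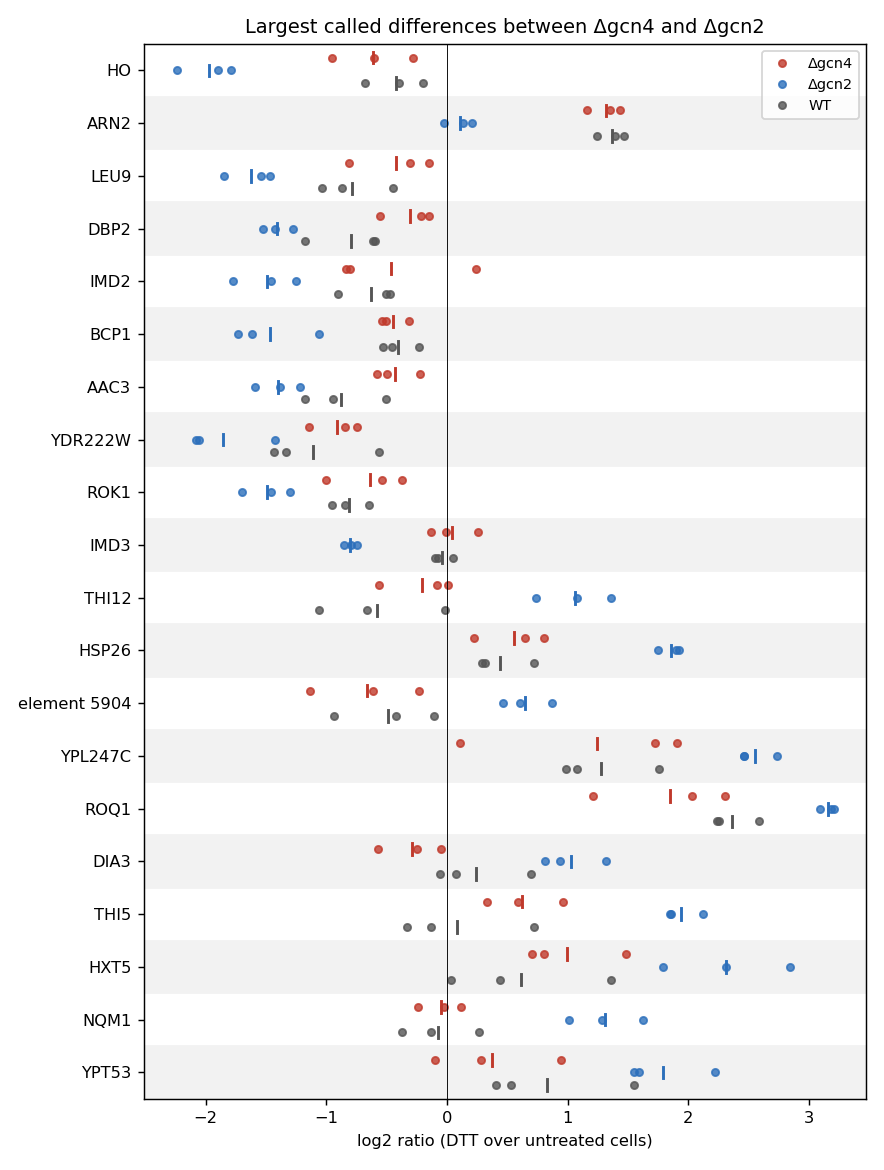
Log2 ratio (DTT over untreated) on each array for the 10 largest positive and 10 largest negative called differences, with 3 points and a bar at the mean for Δ*gcn4*, Δ*gcn2*, and WT. Each gene's Δ*gcn4* and Δ*gcn2* points are apart, and for *ARN2*, *HSP26*, and *NQM1* the Δ*gcn4* points lie with those of WT.

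The 20 elements with opposite calls were each lower after DTT in Δ*gcn4* and higher in Δ*gcn2*. The lowest adjusted p among them was that of *GPG1*, which encodes a protein that binds the G protein alpha subunit Gpa2p. It gave −0.35, −0.46, and −0.32 in Δ*gcn4*, against 0.59, 0.72, and 0.70 in Δ*gcn2*, with −0.56, −0.36, and −0.32 in WT. Its Δ*gcn4* and WT values overlapped, and the difference of −1.05 ± 0.12 (SE, adjusted p = 0.000987) held in all leave-one-out fits and after scaling. The 4 other elements with the largest differences of this kind, 5904, 290, 1634, and 16, have no symbol in the annotation used here. Their Δ*gcn4* means were −0.66, −0.50, −0.36, and −0.41, against 0.65, 0.51, 0.59, and 0.51 in Δ*gcn2*. Element 1634 lost its call after scaling (adjusted p = 0.091) and the other 3 did not.

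Genes of translation were followed in 4 lists. Of 54 measured genes of ribosome biogenesis, 6 were higher in Δ*gcn4* than in Δ*gcn2*, where 1.88% of all elements were, and none was lower, with a median difference of 0.36, against −0.06 over all elements. On the arrays the median of the 54 genes was −0.59, −0.67, and −0.80 in Δ*gcn4*, against −0.98, −1.08, and −1.11 in Δ*gcn2*, with −0.56, −0.69, and −0.68 in WT. The fall after DTT was thus deeper in Δ*gcn2* on every array. *RRP6*, for an exonuclease of the nuclear exosome, gave −0.46, −0.41, and −0.44, against −1.11, −1.12, and −1.14 in Δ*gcn2* (0.69 ± 0.13, adjusted p = 0.0111). *UTP25* (0.82), *NOP2* (0.63), for a ribosomal RNA methyltransferase, and *RRP12* (0.60) also passed. After scaling the median of the list was 0.25 and 1 of the 6 calls was left. The count of 6 was 0 without Δ*gcn2* replicate 3, 5 without Δ*gcn4* replicate 3, and 1 without any other array of these strains.

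The aminoacyl-tRNA synthetases, which charge the tRNAs that Gcn2p senses when uncharged, shifted in the same direction. Of 18 measured, 5 were higher in Δ*gcn4*, where 1.88% of all elements were, and none was lower. The 18 differences all lay above 0 (0.05 to 0.75), with a median of 0.33. *WRS1*, for the tryptophan enzyme, gave 0.00, −0.39, and −0.33 in Δ*gcn4*, against −1.01, −1.10, and −0.85 in Δ*gcn2*. *ILS1*, for the isoleucine enzyme, gave 0.06, −0.09, and −0.22, against −0.62, −0.93, and −0.89. Both sets were apart, by 0.75 ± 0.14 and 0.73 ± 0.13 (SE, adjusted p = 0.00955 for each). *MES1* and *CDC60*, for the methionine and leucine enzymes, differed by 0.69 and 0.60. Against WT, 10 of the 18 were below in Δ*gcn2* and none was called in Δ*gcn4*. Of all elements, 6.24% were below WT in Δ*gcn2* and 1.94% in Δ*gcn4*. The median was 0.34 after scaling, where 3 calls were left. Without Δ*gcn2* replicate 3 only the call of *WRS1* was left.

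Ribosomal proteins differed less. Of 124 cytosolic ribosomal protein genes, 6 were higher in Δ*gcn4*, where 1.88% of all elements were, and none was lower. The median difference was 0.05, and −0.05 after scaling. The genes were lower after DTT in both strains, 121 in Δ*gcn4* and 123 in Δ*gcn2*, with 38.7% and 37.8% of all elements. *RPL9A* (0.81), *RPS4B* (0.72), *RPP0* (0.67), and *RPS9A* (0.66) had the largest differences, and paralogs of *RPL9A*, *RPS4B*, and *RPS9A* may share signal with their spots. The count of 6 was 2 after scaling and 0 without Δ*gcn2* replicate 3. Of 65 mitochondrial ribosomal protein genes, none passed in either direction, with a median of 0.05.

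The Gcn2 pathway itself showed a single call among 17 measured genes. *GCD11*, which encodes the gamma subunit of eIF2, gave 0.08, −0.12, and −0.03 in Δ*gcn4*, against −0.74, −0.61, and −0.77 in Δ*gcn2*, with −0.03, −0.20, and 0.07 in WT (0.68 ± 0.13, SE, adjusted p = 0.0105). The message was not called in Δ*gcn4* and was lower after DTT in Δ*gcn2*. The call was kept after scaling (adjusted p = 0.0238) and lost in at least one leave-one-out fit (largest adjusted p = 0.0663).

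Amino acid biosynthesis, the best known output of Gcn4p, showed few differences between the strains in the response to DTT. A difference in level between the untreated strains would not show in these ratios. None of 7 histidine genes, 14 genes of aromatic amino acids, or 17 amino acid permeases passed, and their medians were 0.15, 0.06, and 0.18. Single genes passed in the other lists. *LYS20*, for homocitrate synthase, was higher in Δ*gcn4* (0.61, 1 of 9 lysine genes), as was *LEU9* (1 of 11 branched-chain genes). *ORT1*, for the mitochondrial ornithine carrier, was lower (−0.68, 1 of 8 arginine genes), as were *GDH3*, for a glutamate dehydrogenase (−0.60, 1 of 23 other genes), and *MET14*, for a kinase of sulfate assimilation (−0.62, 1 of 25 sulfur genes). *ORT1* was among the elements with opposite calls, at −0.61, −0.21, and −0.30 in Δ*gcn4*, against 0.44, 0.11, and 0.38 in Δ*gcn2*. The calls of *LYS20*, *ORT1*, *GDH3*, and *MET14* were lost after scaling. The 3 IMP dehydrogenase genes, *IMD4* included (0.57), were the only calls among 13 purine genes, where 1.88% of all elements were higher. After scaling the call of *IMD3* was left.

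**Figure D3:**
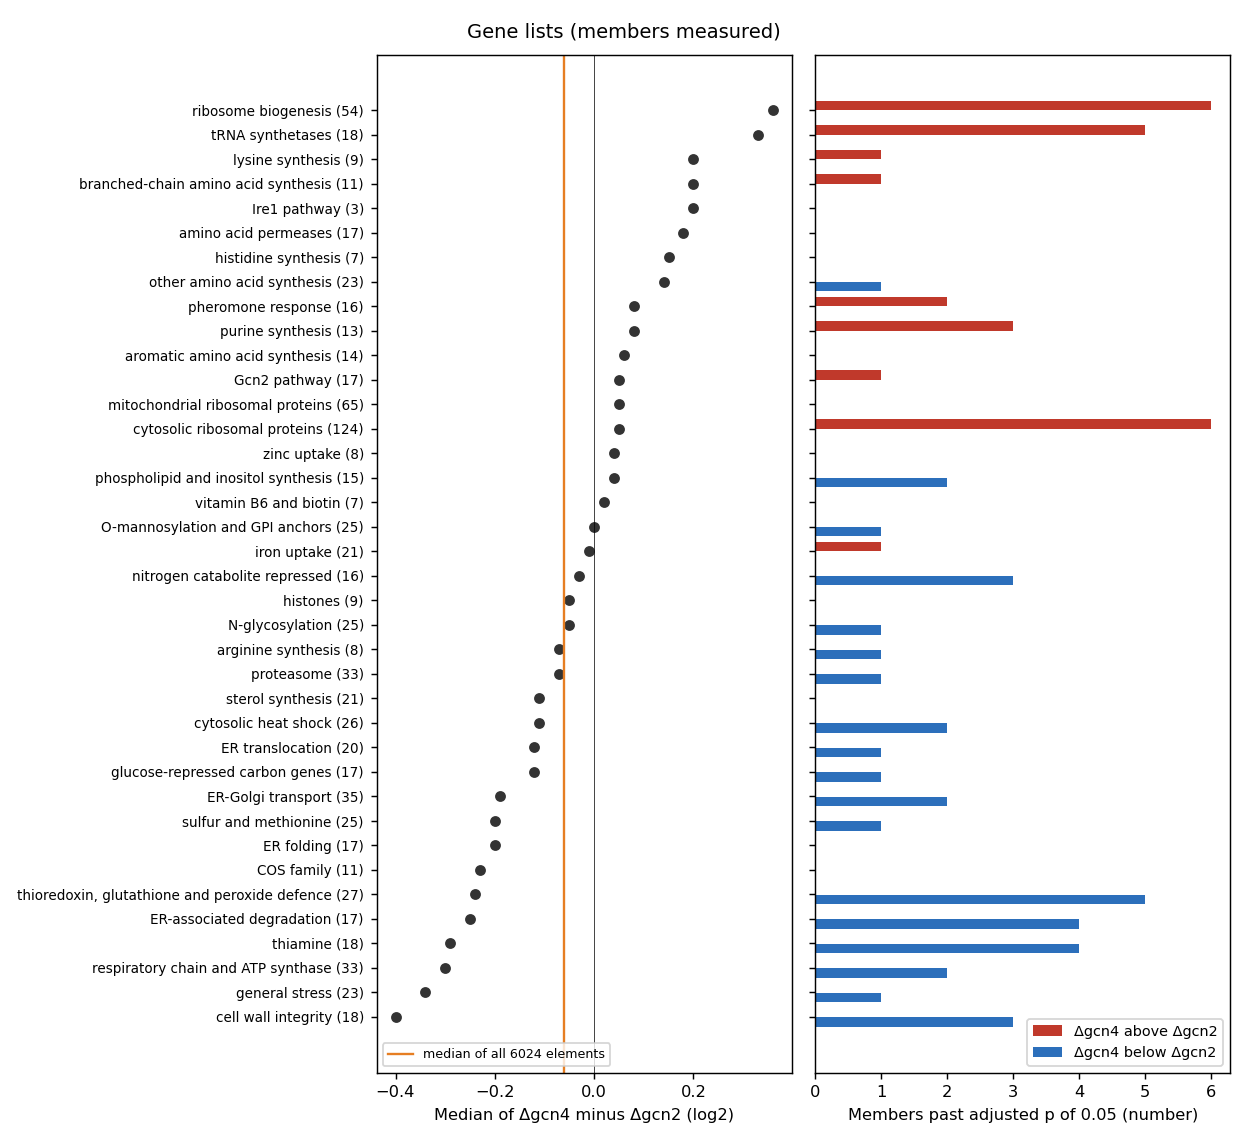
Left, median of Δ*gcn4* minus Δ*gcn2* on the log2 scale for each of 38 gene lists, with the number of members measured. Right, the number of members past the threshold in each direction (bars). Ribosome biogenesis and the tRNA synthetases hold the highest medians (0.36 and 0.33) and cell wall integrity and general stress the lowest (−0.40 and −0.34). After scaling the order changed: the tRNA synthetases (0.34) stood above ribosome biogenesis (0.25), and the respiratory chain was lowest (−0.39), with general stress at −0.23 and cell wall integrity at −0.18.

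The ER and its UPR elements were examined through the genes from which the study drew its candidate elements. Of the 9 sequences below, those of the numbered motifs are each motif in its source promoter, as the study's oligonucleotide list gives it, and that of *KAR2* is a stretch of its UPRE-1 gel-shift probe. Each is named by its source gene, with the element in capitals, and shown so that the response of each source gene in both strains can be read beside its element.
KAR2 (UPRE-1): gaactggaCAGCGTGtcgaaaaa
ERO1 (Motif 1, UPRE-2): atacggagTACGTGtcataaaa
BIR1 (Motif 2): ccttctgtTAGTGCagagtctc
EDC1 (Motif 3): ccgggagcGGTTCTGGcgtgttta
DOG1 (Motif 4): ttcttaacGACGCGCAaagaaaaa
TRK2 (Motif 5): gcctccagCACAATttcacaac
LHS1 (Motif 6): gctaattaGGCGCGCGcctcaaat
OPI3 (Motif 7): caggtcttCCACGTGGaactgcca
DHH1 (Motif 8, UPRE-3): taagaaaaAGGACAACacaatctt
The name UPRE marks elements that drove a reporter under ER stress. The letters ACGTG were found, on either strand, in the sequences from *ERO1* and *OPI3*.

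The 3 genes from which the active elements came did not pass the threshold between the strains. *KAR2*, for the ER chaperone BiP, gave 1.73, 1.55, and 1.79 in Δ*gcn4*, against 1.83, 1.82, and 1.82 in Δ*gcn2* (−0.13, 95% interval −0.45 to 0.19, adjusted p = 0.638). *ERO1*, for the ER thiol oxidase, gave 0.97, 1.11, and 1.22 in Δ*gcn4*, against 1.38, 1.20, and 1.34 in Δ*gcn2*, with 1.90, 2.06, and 1.90 in WT (−0.20, −0.48 to 0.07, adjusted p = 0.369). Both deletion strains were below WT for *ERO1*, as both were for *LHS1*, and these 2 genes stand among the first 139 elements of the table. *KAR2* stands outside them and was not called against WT in either strain. Its differences from WT were −0.27 in Δ*gcn4* and −0.14 in Δ*gcn2* (adjusted p = 0.401 and 0.56). *DHH1*, for an RNA helicase of mRNA decay, gave 0.24, 1.07, and 0.48 in Δ*gcn4*, against 0.81, 1.21, and 1.28 in Δ*gcn2* (−0.51, −1.03 to 0.02, adjusted p = 0.229). After scaling, the differences of *KAR2* and *ERO1* were above 0 (0.29 and 0.12), again without a call.

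Among the sources of the other motifs, *EDC1*, for an activator of mRNA decapping, had the largest difference. It gave −0.07, 0.28, and 0.52 in Δ*gcn4*, against 0.78, 1.40, and 1.16 in Δ*gcn2*, with −0.25, 0.22, and 0.15 in WT (−0.87 ± 0.20, SE, adjusted p = 0.024). *TRK2*, for a potassium transporter, gave 0.67, 1.01, and 1.10, against 1.58, 1.25, and 1.78 (−0.61 ± 0.16, adjusted p = 0.0376). *BIR1*, for a chromosome passenger protein, was at the edge of the threshold (−0.63, adjusted p = 0.0496). All 3 calls were lost after scaling. *DOG1*, for a sugar phosphatase, *OPI3*, for a phospholipid methyltransferase, and *LHS1*, for the exchange factor of BiP, did not pass. Their differences were −0.67 (95% interval −1.13 to −0.21), −0.46 (−0.82 to −0.10), and 0.08 (−0.41 to 0.58).

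*HAC1* mRNA, the substrate of Ire1p, showed the widest gap among these UPR genes but did not pass the threshold. It gave 0.23, 1.25, and 1.71 in Δ*gcn4*, against 2.25, 2.09, and 2.26 in Δ*gcn2*, with 1.16, 1.11, and 1.03 in WT. The arrays of the deletion strains did not overlap, and the Δ*gcn2* arrays were also all above WT. The difference was −1.14 (95% interval −1.98 to −0.30, adjusted p = 0.0952). Without Δ*gcn4* replicate 1 it was −0.72 (adjusted p = 0.315), and with only the 6 arrays of the deletion strains in the fit it passed (adjusted p = 0.0303). A spot does not tell spliced from unspliced *HAC1* mRNA. *IRE1* is not among the named elements.

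**Figure D4:**
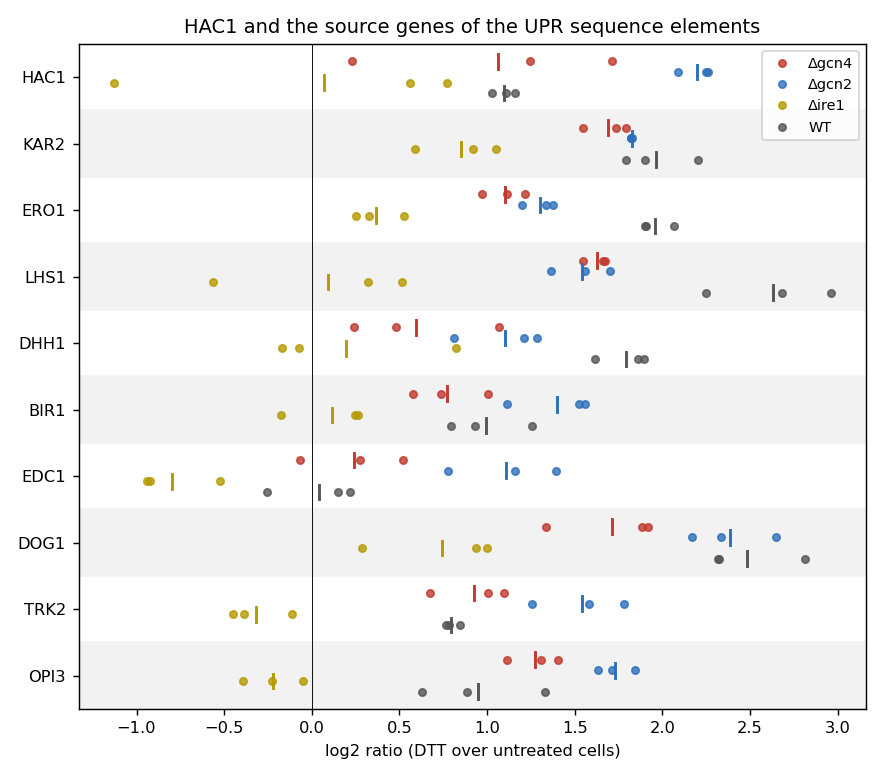
Log2 ratio (DTT over untreated) on each array for *HAC1* and the 9 source genes of the elements, with 3 points and a bar at the mean for Δ*gcn4*, Δ*gcn2*, Δ*ire1*, and WT. For *ERO1* and *LHS1* both *gcn* deletions lie between Δ*ire1* and WT, whereas for *HAC1*, *EDC1*, *TRK2*, and *OPI3* the Δ*gcn2* points lie above all WT points.

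In the wider ER lists the median difference lay at or below 0, with −0.06 over all elements. N-glycosylation (−0.05) and O-mannosylation and GPI anchors (0.0) lay above the latter value, and after scaling each was 0.09. Of 17 genes of ER folding, none passed, with a median difference of −0.20 and a range of −0.80 to 0.54. DTT raised 11 of them in Δ*gcn4*, against 12 in Δ*gcn2*, beside 15.8% and 25.2% of all elements. Each strain had 6 below WT, beside overall shares of 1.94% (Δ*gcn4*) and 6.24% (Δ*gcn2*). *SIL1*, for an exchange factor of BiP, gave 2.21, 1.77, and 1.73 in Δ*gcn4*, against 2.11, 1.93, and 2.26 in Δ*gcn2*. *JEM1*, for a J-domain protein of the ER, gave 1.46, 1.46, and 1.61, against 2.04, 1.58, and 2.05 (−0.38, 95% interval −0.75 to −0.01, adjusted p = 0.197), and these 2 examples were chosen after their values were seen. The median of the list was 0.03 after scaling. The ER genes *SIL1*, *ERO1*, *LHS1*, *EUG1*, and *MPD1* were each called below WT under both deletions. They all stand among the first 139 elements of the table, where 91 elements (Δ*gcn4*) and 75 (Δ*gcn2*) were below WT. Later rows had shares of 0.442% and 5.11%. How far the counts of the list below WT rest on the first rows was not tested.

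ER-associated degradation, which exports misfolded proteins to the proteasome, had a median of −0.25. Of its 17 genes, 4 were lower in Δ*gcn4*, where 4.45% of all elements were, and none was higher. They were *UBX2*, for the anchor of Cdc48p (−0.66), *USA1*, for a scaffold of the Hrd1p ligase (−0.64), *UBC7*, for its conjugating enzyme (−0.62), and *DFM1*, for a derlin (−0.54). *USA1* gave 0.63, 0.57, and 0.82 in Δ*gcn4*, against 1.34, 1.31, and 1.28 in Δ*gcn2*, and *UBC7* gave −1.05, −0.78, and −0.67, against −0.26, −0.20, and −0.20. *USA1* was thus higher after DTT in both strains and *UBC7* was not. All 4 calls were lost after scaling, where the median was −0.06, and 2 were left outside the first 139 elements. The count of 4 was kept without Δ*gcn4* replicate 3 and was 0 or 1 without any other array of these strains.

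In the other ER and secretory lists single genes passed, each lower in Δ*gcn4*, at shares near the 4.45% of all elements that were lower. All of these genes stand among the first 139 elements of the table, where 13.7% were lower. They were *DPM1*, for dolichol phosphate mannose synthase (1 of 25 genes of N-glycosylation), *LAS21*, for an enzyme of GPI anchors (−1.07, 1 of 25 of O-mannosylation and GPI anchors), *SEC72*, for a subunit of the translocation complex (−0.72, 1 of 20), and *ERV25* and *SEC26*, for a p24 cargo protein and a COPI subunit (−0.64 and −0.47, 2 of 35 of ER-Golgi transport). *DPM1* gave −1.88, −1.25, and −1.10 in Δ*gcn4*, against −0.18, −1.01, and −0.04 in Δ*gcn2* (adjusted p = 0.0357). *SEC72* gave −0.69, −0.80, and −0.67 in Δ*gcn4*, against 0.01, −0.16, and 0.14 in Δ*gcn2*, and was the only gene of this group still called after scaling (adjusted p = 0.0201). *INO1*, for inositol phosphate synthase, was among the larger differences in genes induced in both strains, at 1.47, 1.57, and 1.73 in Δ*gcn4*, against 2.34, 2.71, and 2.87 in Δ*gcn2* (−1.05 ± 0.17, SE, adjusted p = 0.0064). *INO4*, for an activator of *INO1*, differed by −0.51. Both calls were lost after scaling (adjusted p = 0.0932 and 0.159). These were 2 of 15 genes of phospholipid synthesis, and none of 21 genes of sterol synthesis passed.

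The genes induced through Ire1p can be delimited without the Δ*gcn4* and Δ*gcn2* arrays, as those that DTT raised in WT (18.4% of all elements) and that responded less in Δ*ire1* (11.3%), though the fit shares its estimate of spread. Of these 460 elements, 4 were higher in Δ*gcn4* than in Δ*gcn2* and 40 were lower (8.7%, against 4.45% of all). The median difference was −0.19, with a median response of 0.50 in Δ*gcn4*, against 0.66 in Δ*gcn2*, with 0.67 in WT. Of 648 elements induced in WT without a call in Δ*ire1*, 3 were higher and 48 lower (7.41%), again with a median of −0.19. No test between these 2 classes was run. These shares and medians are from the unscaled arrays, whose spread was narrower in Δ*gcn4*, and how far they depend on that spread was not tested. Among 2352 elements lower after DTT in WT, 75 were higher and 70 lower, with a median of 0.02.

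The first 139 elements of the table hold most of the elements below WT in Δ*gcn4*, 91 of the 117, and 75 of the 376 below WT in Δ*gcn2*, with 69 in both. In later rows these shares were 0.442% in Δ*gcn4* and 5.11% in Δ*gcn2*. What set these rows at the head of the table is not given in the sources used here. Between the deletion strains, 1 of the 139 was higher in Δ*gcn4* and 19 were lower, with a median of −0.22. Their median response was −0.37, −0.18, and −0.08 on the Δ*gcn4* arrays, −0.02, 0.03, and 0.09 on the Δ*gcn2* arrays, and 0.54, 0.63, and 0.71 on the WT arrays. All arrays of both strains thus lay below the WT arrays, and those of Δ*gcn4* below those of Δ*gcn2*. Of the genes named here, *ERO1*, *LHS1*, *DHH1*, *DOG1*, *DPM1*, *LAS21*, *ERV25*, *SEC26*, *SEC72*, *DFM1*, *UBC7*, *SIL1*, *EUG1*, *MPD1*, *THI20*, and element 16 belong to these rows. Without them 348 elements were called, 109 higher and 239 lower in Δ*gcn4*, and 27 of the 371 genes left in the Ire1p-dependent class were lower and 4 higher. *BIR1* and *MET14* then missed the threshold (adjusted p = 0.0509 and 0.0506).

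The stress and redox lists had medians below that of all elements. The 27 genes of the thioredoxin, glutathione, and peroxide systems had a median of −0.24. Of these, 5 were lower in Δ*gcn4*, where 4.45% of all elements were, and none was higher. They included *TRR2*, for mitochondrial thioredoxin reductase (−0.64), *SOD2*, for mitochondrial superoxide dismutase (−0.58), *PRX1*, for a mitochondrial peroxiredoxin (−0.56), and *GRX1*, for a glutaredoxin (−0.54). *SOD2* gave −0.48, −0.46, and −0.51 in Δ*gcn4*, against 0.17, −0.01, and 0.14 in Δ*gcn2*, with −0.50, −0.57, and −0.69 in WT. It was lower after DTT in Δ*gcn4* and not called in Δ*gcn2*. All 5 calls were lost after scaling, where the median was −0.09, and the count of 5 was 2 without Δ*gcn4* replicate 3 and 0 without any other array of these strains.

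The general stress list had a median of −0.34, with 1 call in 23 genes, a share near the 4.45% of all elements that were lower. This was *CTT1*, for cytosolic catalase, at −0.19, −0.29, and −0.28 in Δ*gcn4*, against 0.42, 0.45, and 0.61 in Δ*gcn2* (−0.74 ± 0.17, SE, adjusted p = 0.0251). *HSP26* and *SSE2*, for an Hsp110 chaperone (−0.81), were 2 of 26 cytosolic heat shock genes, whose median was −0.11. *RPN13* was 1 of 33 proteasome genes (−0.49). *CTT1*, *SSE2*, and *RPN13* lost their calls after scaling (adjusted p = 0.125, 0.27, and 0.131). *ADR1*, for an activator of glucose-repressed genes, gave 0.16, 0.02, and 0.10 in Δ*gcn4*, against 1.14, 0.98, and 1.51 in Δ*gcn2*, with −0.61, −0.57, and −0.05 in WT (−1.12 ± 0.17, adjusted p = 0.0051). It was the only call among 17 glucose-repressed genes, and it held in all leave-one-out fits and after scaling.

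The cell wall list had a median of −0.40, with 3 of 18 genes lower in Δ*gcn4*, where 4.45% of all elements were. The median was −0.18 after scaling and −0.25 without Δ*gcn2* replicate 3, where none of the 3 calls was left. *NCW2*, for a cell wall protein, gave −0.17, −0.18, and 0.21 in Δ*gcn4*, against 0.81, 0.93, and 1.18 in Δ*gcn2* (−1.02 ± 0.18, adjusted p = 0.00827), and *CHS3*, for a chitin synthase, and *PST1* differed by −0.57 and −0.55. After scaling *NCW2* and *PST1* kept their calls and *CHS3* did not (adjusted p = 0.119). Genes of the respiratory chain and ATP synthase fell after DTT in both strains. Of 33 measured, 32 fell in Δ*gcn4*, against 31 in Δ*gcn2*, with 38.7% and 37.8% of all elements. The median difference was −0.30. *QCR8* (−0.81) and *COX5A* (−0.65) passed, 2 of 33, where 4.45% of all elements were lower. Both were still called after scaling (adjusted p = 0.0238 for each), where the median of the list was −0.39.

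**Figure D5:**
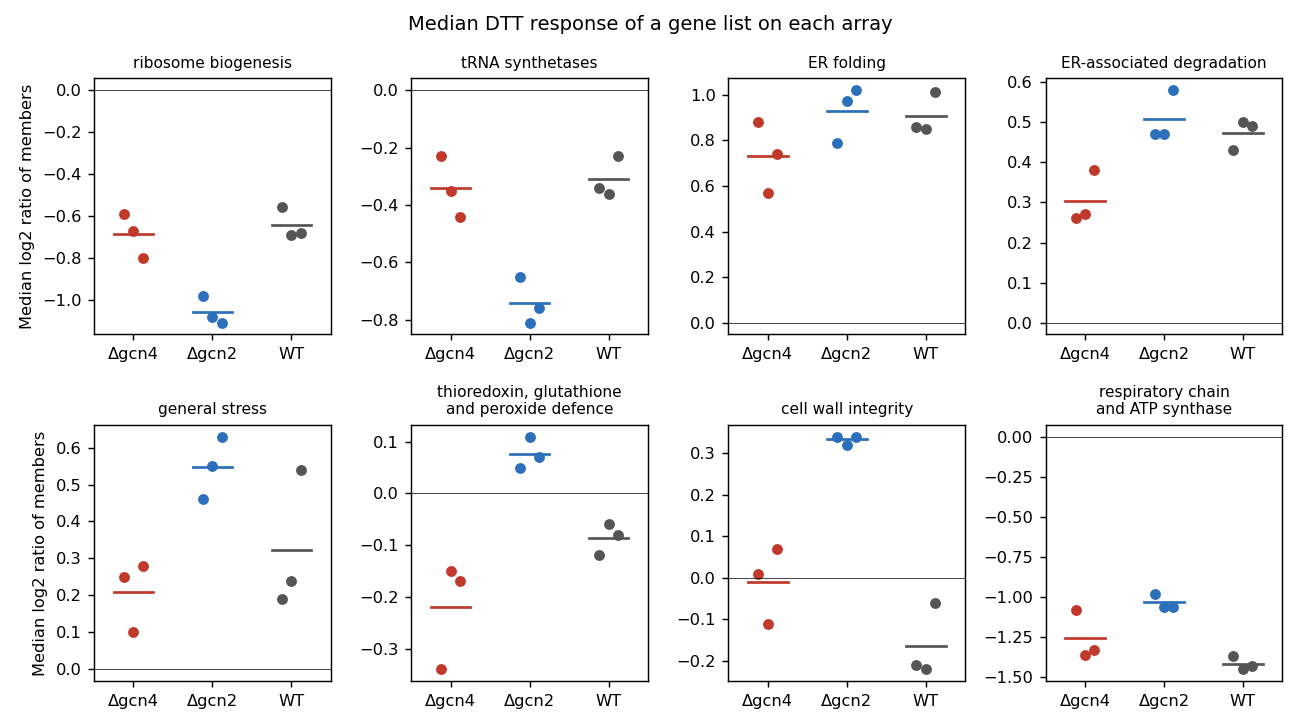
Median log2 ratio (DTT over untreated) over the members of 8 gene lists on each array, with 3 points and a bar at their mean for Δ*gcn4*, Δ*gcn2*, and WT. Ribosome biogenesis and the tRNA synthetases are lowest in Δ*gcn2*, and the cell wall list is near 0 in Δ*gcn4* (−0.11 to 0.07) and 0.32 to 0.34 in Δ*gcn2*.

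Vitamin and nitrogen genes gave the remaining groups. Of 18 thiamine genes, 4 were lower in Δ*gcn4*, with a median of −0.29. Of all elements, 4.45% were lower and 1.88% higher, the shares to set beside the counts of these lists. *THI5*, *THI11*, and *THI12*, which make the pyrimidine part of thiamine, are near-identical copies and count as little more than 1 measurement. *THI5* gave 0.58, 0.33, and 0.96 in Δ*gcn4*, against 1.85, 1.85, and 2.12 in Δ*gcn2*, with −0.33, −0.13, and 0.72 in WT (−1.32 ± 0.23, SE, adjusted p = 0.00818). *THI20*, for a kinase of the same pathway, differed by −0.66. After scaling the calls of *THI5* and *THI12* were left, and without Δ*gcn2* replicate 3 none of the 4 was. Of 16 genes under nitrogen catabolite repression, *PUT1*, for proline oxidase (−0.95), *DUR3*, for a urea transporter (−0.57), and *DAL4*, for the allantoin permease (−0.54), were lower in Δ*gcn4*, with a list median of −0.03. *PUT1* gave −1.08, −1.20, and −0.89 in Δ*gcn4*, against −0.02, −0.33, and 0.04 in Δ*gcn2*, and was called after scaling (adjusted p = 0.0242), which *DUR3* and *DAL4* were not. Of 16 pheromone response genes, *MFA2* (0.61) and *STE2* (0.58), for a-factor and the alpha-factor receptor, were higher in Δ*gcn4*, and neither was after scaling. No gene of the zinc, vitamin B6 and biotin, histone, or *COS* lists passed, with medians of 0.04, 0.02, −0.05, and −0.23.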

How the data were processed

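The authors hybridised mRNA of DTT-treated and untreated cells of one strain to spotted ORF arrays and deposited log2 ratios for 6024 elements on 12 arrays, with no missing value. Per the labels, a positive log2 ratio means more mRNA after treatment. The scanner, the normalization within arrays, and the genome build are not given in the sources used here, and no intensities were used, so depth over background was not examined and precision is set by the number of arrays. Symbols came from the platform annotation, updated through Entrez identifiers to RefSeq R64 symbols. Of the elements, 5432 had a symbol and 592 had none in these tables.

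Arrays were fitted together by strain with limma 3.58.1 (R 4.3.3, lmFit and eBayes), and p-values were adjusted over the 6024 elements by the Benjamini-Hochberg method at a threshold of 0.05. Differences are Δ*gcn4* minus Δ*gcn2* with their SE or 95% interval. The fit was tested on simulated data with independent noise of equal size on all arrays, which real arrays need not have. It recovered 26 of 100 shifts of 0.5 and 95 of 100 shifts of 1.0, so many differences near 0.5 would be missed. Named genes were the pathway and motif genes, the 10 largest called differences in each direction with arrays that do not overlap, up to 4 called members of each of 38 lists, and up to 5 opposite calls in each direction. The members and lists were chosen with earlier results of these data known. List members not matched to an element were left out (866 distinct genes measured). Alternatives were the arrays in the fit, a replicate block, centering, scaling, array weights, a robust prior, the rows tested, and leaving out each array. Motif sequences were copied from the source promoter contexts, and the *KAR2* sequence from a gel-shift probe, in the study's supplementary oligonucleotide list.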

Additional observations from a re-analysis of the deposited data

Results flagged for a closer look

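The Δ*gcn4* minus Δ*gcn2* contrast tests a difference between 2 strains under the same treatment, and 381 elements passed it. Of the elements called lower after DTT in Δ*gcn4* and higher in Δ*gcn2*, the 5 with the largest differences were element 5904 (−1.31), *GPG1* (−1.05), element 290 (−1.01), element 1634 (−0.95), and element 16 (−0.92), each past the threshold of the direct contrast. With 3 arrays in a strain, single arrays were not tested as outliers.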

How the results depend on the processing

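The count of 381 elements (113 higher and 268 lower in Δ*gcn4*) was 781 (240 and 541) with array weights and 57 (25 and 32) after centering and scaling, and centering alone gave 175 lower. Leaving out 1 array gave 25 to 333 calls (7 to 93 higher, 18 to 240 lower). The other planned settings and the omission of the first 139 elements, a setting chosen after seeing the data, gave 348 to 566 calls, within 1.5 times of 381. The counts within each strain (3278 in Δ*gcn4* and 3800 in Δ*gcn2*) stayed within 1.5 times under all their settings, and the difference in spread was −0.109 by the median absolute deviation (p = 0.1, exact permutation test). With the replicate number as a block 566 elements passed, 380 of the 381 among them. Deviations of same-numbered arrays correlated at 0.0787, 0.244, and 0.262, and those of differently numbered arrays at −0.454 to 0.247. The main fit did not use the replicate numbers, and whether arrays of one number shared a batch was not tested. Uncalled differences changed sign for *LHS1*, which ranged from −0.005 to 0.165 with 1 array left out, and, after scaling, for *ERO1* (0.119) and *KAR2* (0.289). Of the 85 elements named by rule, 76 were called, and of these 50 lost their call after scaling, 15 after centering, and 64 without Δ*gcn2* replicate 3. The cause of these changes was not tested.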

Other observations

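Some genes outside the lists, chosen after their values were seen, kept their call in all leave-one-out fits and after scaling. *ICL2*, for a mitochondrial methylisocitrate lyase, gave 0.37, 0.18, and 0.29 in Δ*gcn4*, against 1.09, 1.05, and 1.26 in Δ*gcn2* (−0.86 ± 0.14, SE, adjusted p = 0.00556). *CMP2*, for a catalytic subunit of calcineurin, gave 0.16, 0.37, and 0.63 in Δ*gcn4*, against 1.45, 1.57, and 1.47 in Δ*gcn2* (−1.11 ± 0.17, adjusted p = 0.00511). *DAP1*, for a heme-binding protein that acts in sterol synthesis, gave −1.23, −0.79, and −0.52, against 0.15, 0.11, and 0.02 in Δ*gcn2* (−0.94 ± 0.16, adjusted p = 0.00671). On the positive side, *KRE33*, for an RNA acetyltransferase of 18S ribosomal RNA, gave −0.37, −0.37, and −0.31 in Δ*gcn4*, against −1.03, −1.14, and −1.04 in Δ*gcn2* (0.72 ± 0.12, adjusted p = 0.00671). *MFB1*, for a mitochondrial F-box protein, gave 0.43, 0.52, and 0.65 in Δ*gcn4*, against −0.38, −0.16, and −0.10 in Δ*gcn2* (0.75 ± 0.13, adjusted p = 0.00818).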
